A study of Mus musculus with 6 samples.

Results

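The genes described here are 47 mouse genes of the Wnt pathway, listed by symbol: 13 ligands, 12 receptors and co-receptors, 10 antagonists, 7 intracellular genes and 5 transcriptional targets. All 47 had a probe on the arrays, 62 probes in all, and 39 passed the filter on dim signals and entered the test, out of 14595 genes tested. Wnt proteins are secreted, lipid-modified ligands that bind Frizzled receptors and LRP5 or LRP6 on the cell surface. Binding stops the Axin, APC and GSK3 complex from marking β-catenin for destruction, so that β-catenin reaches the nucleus and acts through TCF/LEF factors, while secreted and membrane antagonists limit the signal outside the cell. In mouse embryonic stem cells Wnt signalling is known to favour self-renewal, and in the embryo it is known for its part in forming the primitive streak.

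The 6 arrays came from mouse embryonic stem cell lines of the ZHBTc4 background, in which both endogenous Oct4 alleles are disrupted and an Oct4 transgene is shut off by tetracycline. Each line had been rescued by a POU family V gene expressed from a pCAG-IP plasmid: LcPOU5F3, from the coelacanth Latimeria chalumnae (clones 1 and 2), LcPOU5F1, also from the coelacanth (clones 4 and 5), or the mouse gene itself, mOct4 (clones 1 and 2). All 6 lines shared the rest of the protocol: 2 µg/mL tetracycline, then selection with 1 µg/mL puromycin from day 2 after electroporation, colonies picked at day 9, serum and LIF on gelatin, and RNA with an integrity number of 10. Each array therefore stands for 1 picked clone, and the clones of a group share the parental line, so that the tests below measure the spread between clones. The protocol names no feeder cells.

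Signals are given as log2 of the processed spot signal minus the log2 of that array's 75th percentile, so that 0 is the brightness of the 75th percentile probe. A level can be compared between arrays for 1 probe, but not between probes of different genes. A gene was tested where its probe was well above background, the scanner's own flag, on both arrays of at least 1 group. A gene was called where limma's Benjamini-Hochberg adjusted p over the 14595 genes was below 0.05. The share of probes well above background was 43.5% and 53.3% on the LcPOU5F3 arrays, 48.1% and 43.7% on the LcPOU5F1 arrays and 57.5% and 57.8% on the mOct4 arrays. The dimmest signals differed more: the 1st percentile of signal was 18.3 and 5.60 on the LcPOU5F3 arrays, 11.5 and 12.5 on the LcPOU5F1 arrays and 4.96 on both mOct4 arrays, so values below background do not have an order across arrays. Of the scanner software's 10 quality measures, 3 were out of range on LcPOU5F3 clone 1, among them the spread of the negative controls, and 1 on each of the other 5 arrays. Slide 1 held 5 of the arrays and slide 2 held only mOct4 clone 2. The median SD between clones over all genes was 0.232 in LcPOU5F3, 0.151 in LcPOU5F1 and 0.105 in mOct4 (n = 2 each).

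In the main fit of all 6 arrays, all members called in LcPOU5F3 against mOct4 encode ligands, receptors or antagonists. Of the 39 tested genes, 10 were higher and 3 lower in LcPOU5F3 than in mOct4, 33.3% of those tested, beside 23.5% of all genes (11.8% higher and 11.7% lower). The higher genes were 5 ligands (Wnt3, Wnt4, Wnt7a, Wnt9a and Wnt10a), 3 receptors (Fzd1, Fzd6 and Fzd8) and 2 antagonists (Dkk1 and Kremen1). The lower genes were the antagonists Sfrp1, Sfrp5 and Frzb. In LcPOU5F1 against mOct4 no member was called by limma, and only 0.0343% of all genes were called (0.0137% higher and 0.0206% lower). At an unadjusted p under 0.05 there were 12 of the 39 members, beside 2280 of the 14595 genes. In LcPOU5F1 against LcPOU5F3, 5 members were higher and 10 lower, 38.5% of those tested, beside 20.6% of all genes (10.6% higher and 9.99% lower). The 3 comparisons use the same 6 arrays and are not independent of each other.

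These shares rest partly on how genes entered the test. Wnt3, Wnt7a, Fzd6 and Dkk1 entered only through the LcPOU5F3 arrays, and Frzb only through the mOct4 arrays, so a difference for them was built into the filter. Sfrp1 and Sfrp5 entered through the LcPOU5F1 and mOct4 arrays, where they were higher than in LcPOU5F3. Axin2 also entered only through the mOct4 arrays, but its mean was not higher there. It was -3.08, against -2.59 in LcPOU5F3 and -2.7 in LcPOU5F1, which rest in part on signals below background. Where a fold is given below as "at least", the SE and limma adjusted p beside it belong to the fitted difference, not to that bound. Of the members, 26 passed that flag on every one of the 6 arrays. A separate fit of the genes that met this condition called 6 of them in LcPOU5F3 against mOct4 (23.1%), beside 29.7% of the 11619 genes. Of these 6, Wnt9a, Wnt10a, Fzd8 and Kremen1 were also called in the main fit, and Fzd2 and Gsk3b were not. In LcPOU5F1 against LcPOU5F3 the same condition gave 8 of 26 (30.8%), beside 28.4%, and of these 8 only Ctnnb1 was not called in the main fit. Under that condition the members' shares therefore lay near those of all genes.

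The calls also rest on single arrays. Without mOct4 clone 1 or without mOct4 clone 2, 0 members were called by limma in LcPOU5F3 against mOct4 (13 at an unadjusted p under 0.05 each time), and 36 and 46 of all genes. The fit that takes the slide as a block is the same as leaving out mOct4 clone 2. Within slide 1 the 13 log2 differences kept their direction and moved by at most 0.31, with limma adjusted p from 0.0663 to 0.151. Leaving out LcPOU5F3 clone 1 gave 19 calls, which included all 13, leaving out clone 2 gave 13 and leaving out either LcPOU5F1 clone gave 15. In LcPOU5F1 against LcPOU5F3 the 15 calls became 6 without one or the other mOct4 clone (Wnt3, Wnt4, Wnt9a, Wnt10a, Fzd6 and Kremen1), 9 without LcPOU5F1 clone 4, 8 without LcPOU5F1 clone 5, 19 without LcPOU5F3 clone 1 and 12 without LcPOU5F3 clone 2. In LcPOU5F1 against mOct4, leaving out either LcPOU5F3 clone gave 2 calls, Notum (higher) and Frzb (lower).

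The promoters of the ligands with the largest differences, of Dkk1 and of Sp5 are shown to let their sequences be read beside the levels that follow. Each runs from 250 bases before to 50 after the annotated start, 5′ to 3′ on the gene's strand, from RefSeq on GRCm38.p6. Wnt3 lies at chr11:103773925-103774224 (+), Wnt4 at chr4:137277385-137277684 (+), Wnt7a at chr6:91411304-91411603 (-), Wnt9a at chr11:59306680-59306979 (+), Dkk1 at chr19:30549447-30549746 (-) and Sp5 at chr2:70474673-70474972 (+). Capitals mark exact matches on either strand of CTTTGAT, used for TCF/LEF, or ATGCAAA, used for the octamer. Sequences that differ from these letters by any base were not marked or counted, so an unmarked promoter can still hold a near form.
Wnt3: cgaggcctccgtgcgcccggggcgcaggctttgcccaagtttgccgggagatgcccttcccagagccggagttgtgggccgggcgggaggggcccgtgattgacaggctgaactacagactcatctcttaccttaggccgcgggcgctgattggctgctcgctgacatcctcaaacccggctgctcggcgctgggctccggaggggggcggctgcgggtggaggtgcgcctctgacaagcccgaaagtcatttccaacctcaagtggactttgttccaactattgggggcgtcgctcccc
Wnt4: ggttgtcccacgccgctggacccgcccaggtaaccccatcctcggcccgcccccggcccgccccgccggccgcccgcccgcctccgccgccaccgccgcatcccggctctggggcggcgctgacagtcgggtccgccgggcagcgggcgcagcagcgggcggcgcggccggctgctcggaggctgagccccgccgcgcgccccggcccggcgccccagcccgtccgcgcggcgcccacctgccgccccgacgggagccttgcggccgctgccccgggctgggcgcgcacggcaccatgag
Wnt7a: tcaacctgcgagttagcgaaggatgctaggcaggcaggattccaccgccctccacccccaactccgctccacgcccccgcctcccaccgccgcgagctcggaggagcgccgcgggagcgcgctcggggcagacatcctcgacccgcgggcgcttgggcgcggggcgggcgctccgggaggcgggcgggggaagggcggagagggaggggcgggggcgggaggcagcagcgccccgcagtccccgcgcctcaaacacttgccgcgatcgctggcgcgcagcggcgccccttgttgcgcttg
Wnt9a: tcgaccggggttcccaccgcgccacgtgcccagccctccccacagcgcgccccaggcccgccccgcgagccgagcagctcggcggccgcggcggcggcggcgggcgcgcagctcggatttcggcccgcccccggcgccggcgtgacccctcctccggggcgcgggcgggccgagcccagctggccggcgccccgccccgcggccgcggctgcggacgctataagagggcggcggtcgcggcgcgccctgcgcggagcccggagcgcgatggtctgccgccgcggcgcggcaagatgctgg
Dkk1: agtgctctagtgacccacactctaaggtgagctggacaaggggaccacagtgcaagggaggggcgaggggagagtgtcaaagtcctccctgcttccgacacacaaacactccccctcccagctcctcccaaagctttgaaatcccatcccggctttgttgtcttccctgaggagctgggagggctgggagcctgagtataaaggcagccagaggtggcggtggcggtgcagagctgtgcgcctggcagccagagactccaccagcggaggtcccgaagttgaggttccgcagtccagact
Sp5: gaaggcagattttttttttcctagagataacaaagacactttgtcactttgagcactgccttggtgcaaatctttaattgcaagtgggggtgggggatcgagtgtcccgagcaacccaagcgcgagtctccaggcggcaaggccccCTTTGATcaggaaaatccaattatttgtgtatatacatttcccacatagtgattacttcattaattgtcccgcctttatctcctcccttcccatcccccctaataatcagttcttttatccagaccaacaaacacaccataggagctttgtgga

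Sp5 was the only one of these 6 promoters with an exact match, a single CTTTGAT. RefSeq promoters were matched for 30 of the 47 members, 39 promoters in all, since some genes have several starts. CTTTGAT was present in 3 of the 39 (7.69%; Sp5, Wnt5b and Wnt11), beside 3.73% of 32851 mouse promoters of the same length. ATGCAAA was present in 1 of the 39 (2.56%; Sfrp2), beside 4.63% of all promoters, and no match of one motif overlapped a match of the other. The ligand promoters were rich in G and C, 84.3% in Wnt4, 83.3% in Wnt9a, 76.0% in Wnt7a and 65.7% in Wnt3, and that of Dkk1 had 60.7%. Sp5 had 45.0%, beside a median of 52.7% over all promoters.

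Wnt3, a ligand needed in the mouse embryo for the primitive streak, had log2 levels of -0.80 and 0.93 in the LcPOU5F3 clones, against -4.96 and -4.59 in the LcPOU5F1 clones and -4.30 and -4.57 in the mOct4 clones. It was well above background on the LcPOU5F3 arrays and on no other, and entered the test only through them, so the filter favoured a difference. The level was at least 13.8-fold higher in LcPOU5F3 than in mOct4 (log2 difference 4.50 ± 0.57 SE, limma adjusted p = 0.0107), and at least 6.95-fold lower in LcPOU5F1 than in LcPOU5F3 (adjusted p = 0.0103). The LcPOU5F3 clones lay 1.73 log2 units apart, so the difference from mOct4 was 5.36 without clone 1 and 3.63 without clone 2, and that of LcPOU5F1 from LcPOU5F3 was -5.70 and -3.97. With dim signals raised to a common floor, neither Wnt3 call was kept.

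Wnt4, a ligand known from kidney and gonad development, had 0.70 and 1.65 in LcPOU5F3, against -3.36 and -2.91 in LcPOU5F1 and -3.29 and -2.99 in mOct4. This was a 19.9-fold higher level in LcPOU5F3 than in mOct4 (4.32 ± 0.36, limma adjusted p = 0.00591). In LcPOU5F1, where the probe was below background, it was at least 15-fold lower than in LcPOU5F3 (adjusted p = 0.00621). A second Wnt4 probe, well above background on the LcPOU5F3 arrays only, gave fitted log2 differences of 3.75 and -3.17 for the same comparisons.

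Wnt9a, one of the brighter ligand probes in LcPOU5F3, was well above background on all 6 arrays. Its levels were 2.59 and 3.52 in LcPOU5F3, against -1.56 and -1.96 in LcPOU5F1 and -1.27 and -1.41 in mOct4. Both LcPOU5F3 clones stood far above the other 4, by more than the gap between clones within any group. The difference came to 21.1-fold in LcPOU5F3 over mOct4 (4.40 ± 0.34, limma adjusted p = 0.00557) and to a 28.2-fold lower level in LcPOU5F1 than in LcPOU5F3 (adjusted p = 0.00469).

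Wnt10a, a ligand of skin and tooth development, was also well above background on all 6 arrays. It had 1.15 and 1.35 in LcPOU5F3, against -0.50 and -0.55 in LcPOU5F1 and -1.18 and -0.96 in mOct4, 3 separate pairs. LcPOU5F3 was 4.98-fold above mOct4 (2.32 ± 0.16, limma adjusted p = 0.00457), and LcPOU5F1 was 3.42-fold below LcPOU5F3 (adjusted p = 0.00683). The step between LcPOU5F1 and mOct4 was 0.54 ± 0.16 and was not called (adjusted p = 0.25).

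Wnt7a, known from limb patterning, had -1.25 and -1.31 in LcPOU5F3, against -3.47 and -2.90 in LcPOU5F1 and -4.20 and -3.94 in mOct4. It was well above background in LcPOU5F3 alone and entered the test only through those arrays, so the filter favoured a difference. The level in LcPOU5F3 was at least 5.45-fold higher than in mOct4 (2.79 ± 0.24, limma adjusted p = 0.00591), and in LcPOU5F1 at least 2.74-fold lower than in LcPOU5F3 (adjusted p = 0.0115).

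Of the other 4 tested ligands none was called in any comparison in the main fit. Their differences between LcPOU5F3 and mOct4 ran between -0.20 (Wnt5b) and 1.49 (Wnt7b), with the smallest limma adjusted p at 0.0864 (Wnt6). Wnt7b showed a split between clones: 0.43 and 0.51 in LcPOU5F3, against -0.78 in LcPOU5F1 clone 4, -2.81 in clone 5, and -1.1 and -0.96 in mOct4. It was called higher in LcPOU5F3 than in mOct4 with median centring, normexp correction or only the 4 arrays compared, and Wnt6 with an intensity trend. Wnt5b and Wnt11, used in the Wnt pathway's β-catenin-independent branch, differed by -0.20 ± 0.18 and -0.15 ± 0.27 between LcPOU5F3 and mOct4. Over the 5 ligands well above background on all 6 arrays (Wnt5b, Wnt6, Wnt9a, Wnt10a and Wnt11), the median log2 difference was 1.09 for LcPOU5F3 against mOct4, 0.31 for LcPOU5F1 against mOct4 and -0.15 for LcPOU5F1 against LcPOU5F3. The medians over the 11619 genes that met the same condition were -0.06, 0.11 and 0.19. The other ligands listed, Wnt3a, Wnt5a, Wnt8a and Wnt10b, were not tested. Wnt3a, Wnt8a and Wnt10b were not well above background on any array, and Wnt5a only on LcPOU5F3 clone 2 (-2.31) and mOct4 clone 2 (-2.61).

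Wnt6 lies next to Wnt10a on chromosome 1 in the RefSeq gene table. Wnt6 had 1.73 and 2.44 in LcPOU5F3, against 1.53 and 2.34 in LcPOU5F1 and 0.89 and 1.1 in mOct4, so that both coelacanth groups lay above mOct4 by 1.09 ± 0.36 and 0.94 ± 0.36. Neither passed the test (limma adjusted p = 0.0864 and 0.317).

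**Figure D1:**
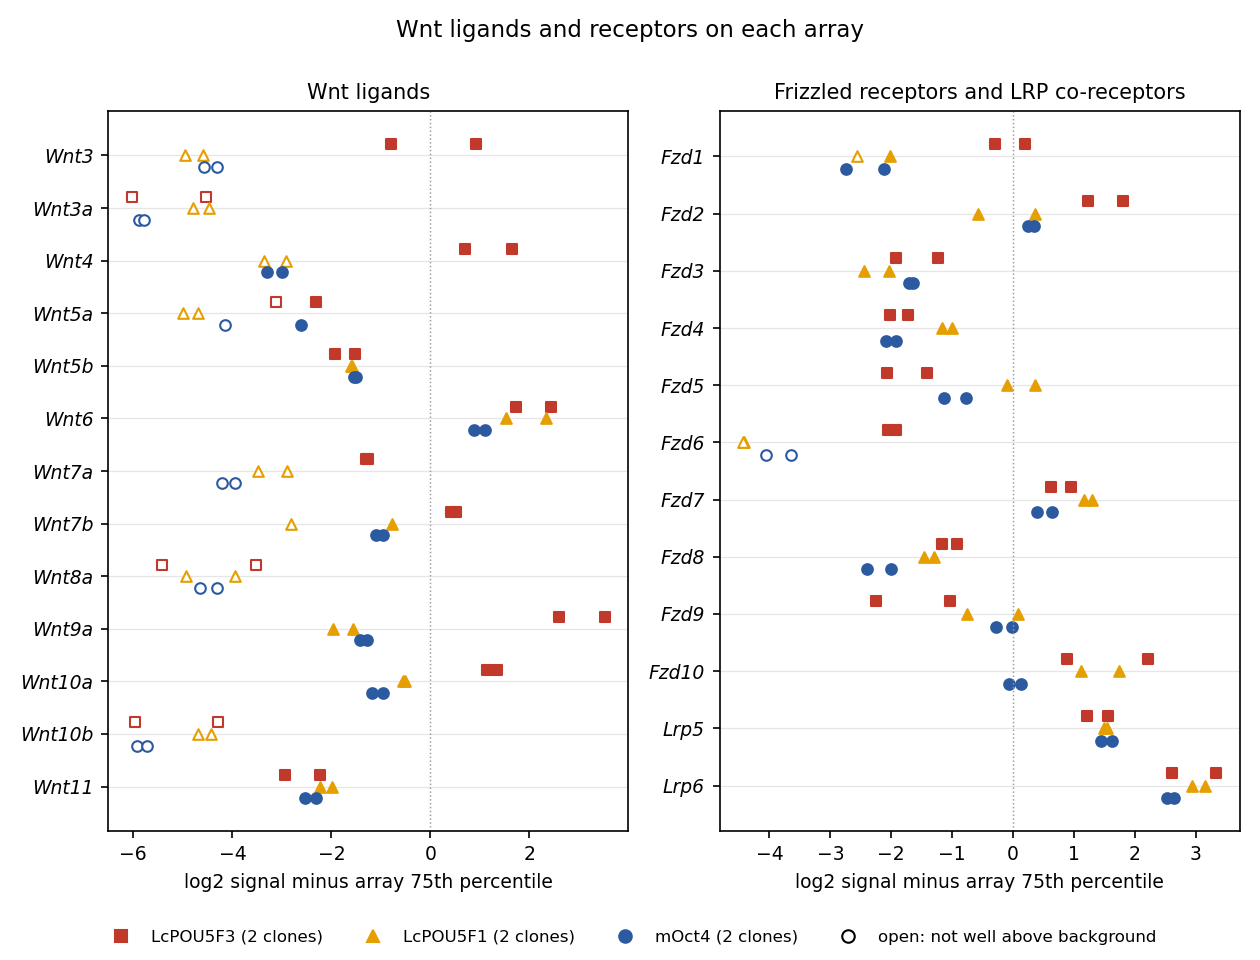
Log2 signal minus the array's 75th percentile for the 13 ligands (left) and the 12 receptors and co-receptors (right), 1 point per clone (2 each of LcPOU5F3, LcPOU5F1 and mOct4), with open points where the probe was not well above background. Wnt3, Wnt4, Wnt7a, Wnt9a and Wnt10a have both LcPOU5F3 points to the right of the other 4, while Lrp5 and Lrp6 have all 6 points close together.

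Among the receptors, 3 of 12 were higher and none was lower in LcPOU5F3 than in mOct4, so that 25.0% were called, beside 23.5% of all genes. Of the 3, Fzd6 entered the test only through the LcPOU5F3 arrays. Frizzled proteins are the membrane receptors that bind Wnt ligands. Fzd1 had -0.30 and 0.19 in LcPOU5F3, against -2.56 and -2.01 in LcPOU5F1 and -2.12 and -2.74 in mOct4. The LcPOU5F3 clones were both above the other 4, 5.17-fold above mOct4 (2.37 ± 0.33, limma adjusted p = 0.0127), and LcPOU5F1, with 1 of 2 arrays above background, was 4.69-fold below LcPOU5F3 (adjusted p = 0.0163). Fzd6, known for hair and tissue polarity, had -2.05 and -1.92 in LcPOU5F3, against -4.42 and -4.43 in LcPOU5F1 and -3.65 and -4.06 in mOct4. Its probe was well above background in LcPOU5F3 alone, at least 3.16-fold above mOct4 (limma adjusted p = 0.0072) and with LcPOU5F1 at least 1.68-fold below LcPOU5F3 (adjusted p = 0.00545).

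Fzd8, another Frizzled, was measured well above background on all 6 arrays. It had -0.93 and -1.17 in LcPOU5F3, against -1.46 and -1.29 in LcPOU5F1 and -2.39 and -2.01 in mOct4. LcPOU5F3 was 2.22-fold above mOct4 (1.15 ± 0.20, limma adjusted p = 0.0197), a call kept in 12 of 20 alternatives and lost with median centring, normexp background correction and no filter on dim probes, among others. LcPOU5F1 lay 0.83 ± 0.20 above mOct4 without passing (adjusted p = 0.2) and 0.33 ± 0.20 below LcPOU5F3, also without passing (adjusted p = 0.277).

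In the main fit Fzd2, Fzd4 and Fzd5 were called only in LcPOU5F1 against LcPOU5F3, without a test of that pattern itself. Fzd2 was 3.10-fold lower in LcPOU5F1, with 0.35 and -0.57, against 1.81 and 1.24 in LcPOU5F3 (limma adjusted p = 0.0378), and had 0.35 and 0.25 in mOct4. This Fzd2 call was kept in 8 of 19 alternatives. With median centring, normexp correction, an intensity trend or all 6 arrays above background, Fzd2 was also called higher in LcPOU5F3 than in mOct4. Fzd4 was 1.73-fold higher in LcPOU5F1, with -1.16 and -1.0, against -1.72 and -2.03 in LcPOU5F3 (adjusted p = 0.0381), and had -1.93 and -2.08 in mOct4. Fzd5, a Frizzled known from eye and gut development, was 3.65-fold higher in LcPOU5F1, with -0.10 and 0.36, against -1.41 and -2.07 in LcPOU5F3 (adjusted p = 0.0199), and its mOct4 clones lay between them at -0.77 and -1.13. A second Fzd5 probe gave a smaller difference of 1.04, and it was called lower in LcPOU5F3 than in mOct4 when every probe was tested on its own (-0.79, adjusted p = 0.0412). The Fzd4 call was kept in only 6 of 19 alternatives, and was lost with quantile normalization, median centring, normexp correction, an intensity trend and no filter, with the slide as a block or only the 4 arrays compared, and without any 1 clone other than LcPOU5F3 clone 1.

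The other 6 receptors were not called in any comparison in the main fit. The co-receptors Lrp5 and Lrp6, which take part in β-catenin signalling beside the Frizzleds, differed between LcPOU5F3 and mOct4 by -0.14 ± 0.18 and 0.39 ± 0.27. Fzd9 and Fzd10 had the outermost values of the receptors not called in that comparison, -1.50 ± 0.49 and 1.52 ± 0.48 (limma adjusted p = 0.0808 and 0.0757). With median centring, normexp correction or an intensity trend, Fzd9 was called lower and Fzd10 higher in LcPOU5F3 than in mOct4. Fzd10 had 0.89 and 2.22 in LcPOU5F3 and 1.12 and 1.74 in LcPOU5F1, all above the 0.14 and -0.06 of mOct4. Fzd7, the Frizzled known to be abundant in embryonic stem cells, and Fzd3 differed by 0.27 ± 0.19 and 0.10 ± 0.29. Over the 10 receptors well above background on all 6 arrays the median was 0.20 for LcPOU5F3 against mOct4, 0.59 for LcPOU5F1 against mOct4 and 0.10 for LcPOU5F1 against LcPOU5F3, beside -0.06, 0.11 and 0.19 over all genes that met the same condition.

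The antagonists moved both ways. In LcPOU5F3 against mOct4, 2 of the 8 tested were higher and 3 were lower (62.5% called, beside 23.5% of all genes, 11.8% higher and 11.7% lower). Dkk1 and Frzb entered the test only through the group where they are high. Sfrp1 and Sfrp5 likewise entered only through LcPOU5F1 and mOct4, the groups where they are high. Of the 3 antagonists above background on all 6 arrays 1, Kremen1, was called. Dkk1, a secreted protein that binds LRP5 and LRP6 and is itself known as a gene that Wnt signalling induces, had -0.01 and -0.37 in LcPOU5F3, against -2.99 and -4.61 in LcPOU5F1 and -5.01 and -5.12 in mOct4. Only the LcPOU5F3 arrays were above background, at least 11.6-fold above mOct4 (4.88 ± 0.54, limma adjusted p = 0.00845). LcPOU5F1 was at least 5.74-fold below LcPOU5F3 (adjusted p = 0.0165). The measured log2 difference in that comparison was -4.42 without LcPOU5F1 clone 4 and -2.80 without clone 5, values that rest on signals below background.

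Kremen1, a membrane receptor that works with Dkk proteins to remove LRP6, had 2.91 and 3.14 in LcPOU5F3, against 1.26 and 1.03 in LcPOU5F1 and 1.19 and 1.05 in mOct4. The 4 clones of LcPOU5F1 and mOct4 overlapped. LcPOU5F3 was 3.75-fold above mOct4 (1.91 ± 0.17, limma adjusted p = 0.00626), and LcPOU5F1 was 3.69-fold below LcPOU5F3 (adjusted p = 0.00683). Dkk1 and Kremen1 therefore stood highest in the same 2 clones.

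The members called lower in LcPOU5F3 than in mOct4, Sfrp1, Sfrp5 and Frzb, encode secreted Frizzled-related proteins, which bind Wnt ligands outside the cell. Sfrp1 had -2.55 and -3.37 in LcPOU5F3, against -0.90 and -0.17 in LcPOU5F1 and -0.26 and -0.68 in mOct4. It fell 5.60-fold in LcPOU5F3 against mOct4 (-2.49 ± 0.39, limma adjusted p = 0.0162), and was 5.37-fold higher in LcPOU5F1 than in LcPOU5F3 (adjusted p = 0.0196). Sfrp5 had -2.28 and -3.42 in LcPOU5F3, against -0.70 and -0.85 in LcPOU5F1 and -0.45 and -0.41 in mOct4, a 5.36-fold lower level in LcPOU5F3 than in mOct4 (adjusted p = 0.0163) and a 4.21-fold higher one in LcPOU5F1 than in LcPOU5F3 (adjusted p = 0.0255). For both genes only 1 of the 2 LcPOU5F3 arrays, clone 2, was well above background. Sfrp2, of the same family, had 1.58 and 1.45 in LcPOU5F3, against 0.27 and 1.91 in LcPOU5F1 and 0.64 and 0.39 in mOct4. It went the other way, higher in LcPOU5F3 than in mOct4 by 0.996 ± 0.54. Sfrp2 was called in no comparison in the main fit, but was called higher in this one with only the 4 arrays compared.

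Frzb, also a secreted Frizzled-related protein, had -4.58 and -6.08 in LcPOU5F3 and -4.84 and -4.56 in LcPOU5F1, against -2.84 and -2.52 in mOct4, where alone it was well above background. Set against the dimmest measurable signal it was at least 1.42-fold lower in LcPOU5F3 (limma adjusted p = 0.0235), a call kept in 9 of 19 alternatives and lost with a common floor, with no filter on dim probes, and with only the 4 arrays compared, among others. In LcPOU5F1 it was at least 1.04-fold lower, not called (adjusted p = 0.207). The fitted difference of LcPOU5F3 from mOct4 was -1.91 without LcPOU5F3 clone 2 and -3.40 without clone 1.

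Notum, an extracellular enzyme that removes the lipid from Wnt ligands and is a known Wnt target, was highest in LcPOU5F1. It had 5.14 and 4.56 in LcPOU5F1, against 3.53 and 2.86 in LcPOU5F3 (3.14-fold higher, limma adjusted p = 0.0261), while mOct4 had 3.06 and 2.98, within the range of LcPOU5F3. The difference of LcPOU5F1 from mOct4 was as large, 1.83 ± 0.31, but was not called over all genes (adjusted p = 0.135). The remaining tested antagonist, Dkk3, was called in no comparison in the main fit. With median centring it was called lower in LcPOU5F1 than in mOct4 and than in LcPOU5F3. Its clones lay apart within LcPOU5F1, at -3.44 in clone 4 and -0.75 in clone 5. Its levels were -1.35 and -0.86 in LcPOU5F3 and -0.77 and -0.92 in mOct4. Dkk2 and Wif1 were not well above background on any array.

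**Figure D2:**
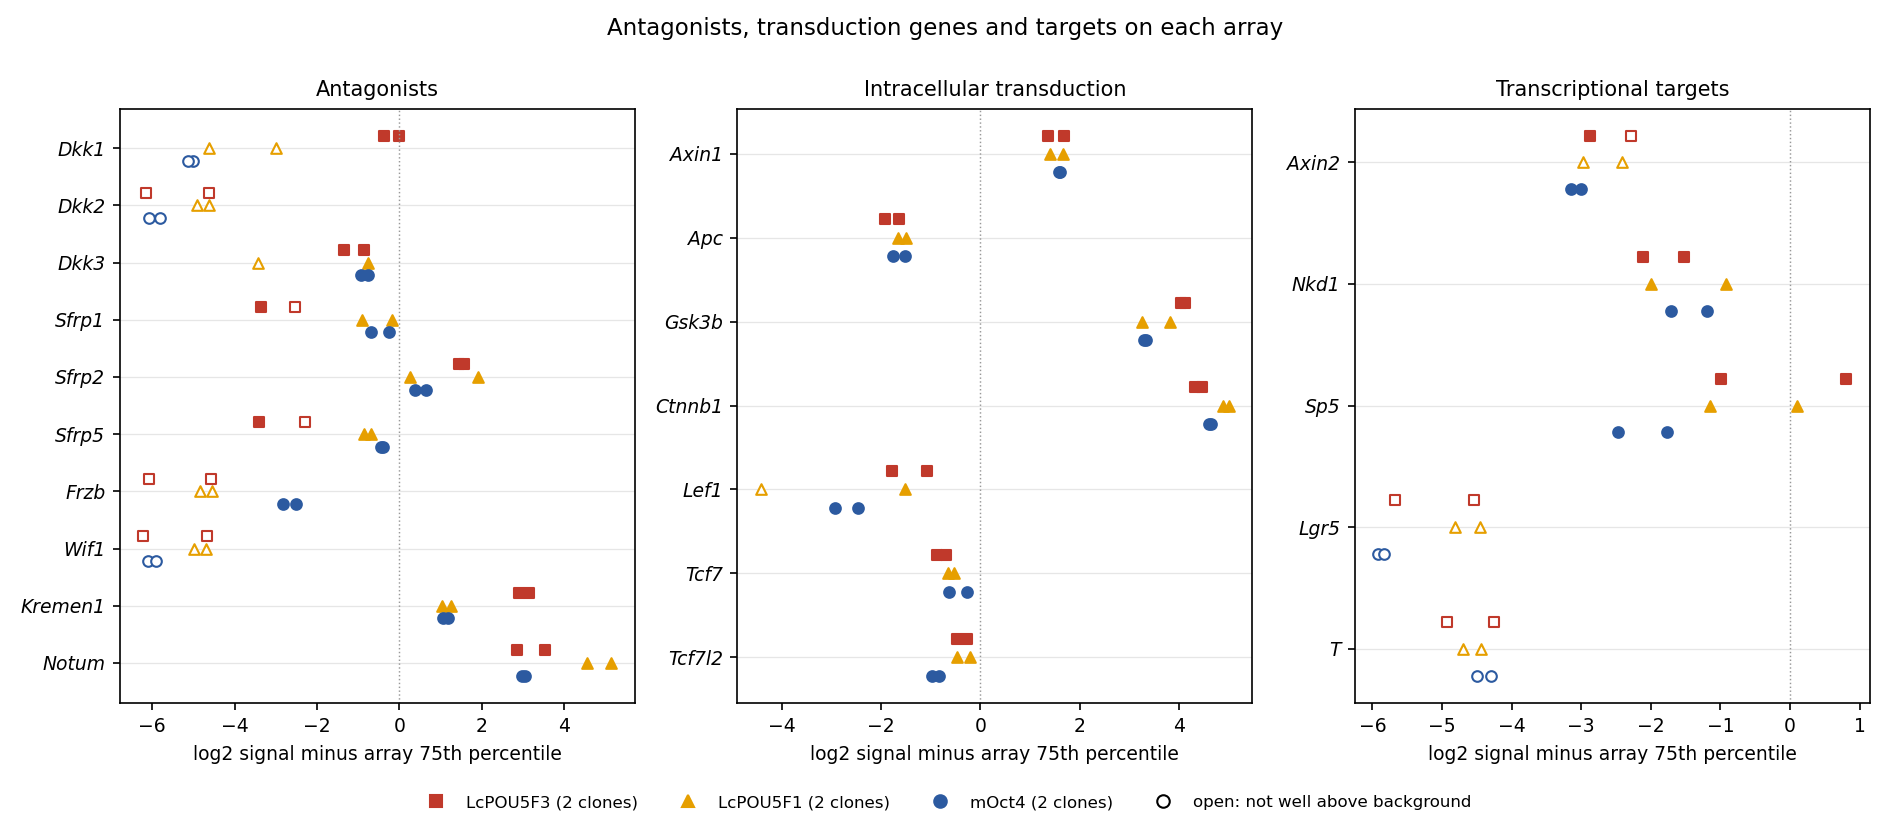
Log2 signal minus the array's 75th percentile for the 10 antagonists, 7 intracellular genes and 5 targets, 1 point per clone and group, open where not well above background. Dkk1 and Kremen1 have both LcPOU5F3 points to the right, Sfrp1 and Sfrp5 have them to the left, Notum has its LcPOU5F1 points to the right, and Lgr5 and T show only open points.

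In the main fit none of the 7 intracellular genes was called in any of the 3 comparisons by limma. Of all genes, 23.5% were called in LcPOU5F3 against mOct4, 0.0343% in LcPOU5F1 against mOct4 and 20.6% in LcPOU5F1 against LcPOU5F3. With only 7 genes, a count of 0 cannot be told apart from these shares. In LcPOU5F3 against mOct4, 2 of the 7 had an unadjusted limma p under 0.05 (Gsk3b and Tcf7l2). So did 1 in LcPOU5F1 against mOct4 (Tcf7l2) and 1 in LcPOU5F1 against LcPOU5F3 (Ctnnb1). Ctnnb1, which encodes β-catenin, had 4.47 and 4.33 in LcPOU5F3, 4.88 and 5.01 in LcPOU5F1 and 4.62 and 4.65 in mOct4. Its group order was LcPOU5F1, mOct4, LcPOU5F3, with steps of 0.31 ± 0.14 and 0.23 ± 0.14. Axin1 and Apc, of the destruction complex, differed between LcPOU5F3 and mOct4 by -0.07 ± 0.19 and -0.14 ± 0.18. All 3 Gsk3b probes had higher means in LcPOU5F3 than in mOct4, by 0.76, 0.88 and 0.64, and the probe used gave a limma adjusted p of 0.0669. Other settings gave calls, among them normexp correction, an intensity trend and only the 4 arrays compared for Gsk3b in LcPOU5F3 against mOct4. Ctnnb1 was called higher in LcPOU5F1 than in LcPOU5F3 with the common floor and an intensity trend. Both were called in these comparisons when all 6 arrays had to be above background.

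The nuclear TCF/LEF factors were not called in the main fit. With median centring, Lef1 was called higher in LcPOU5F3 than in mOct4 and lower in LcPOU5F1 than in LcPOU5F3. Tcf7 had -0.69 and -0.87 in LcPOU5F3, -0.64 and -0.54 in LcPOU5F1 and -0.27 and -0.63 in mOct4, with overlap between LcPOU5F1 and mOct4. Lef1 had -1.78 and -1.09 in LcPOU5F3, -1.51 and -4.43 in LcPOU5F1 and -2.46 and -2.92 in mOct4. LcPOU5F1 clone 5 was below background for Lef1 and stood 2.91 log2 units under clone 4, the widest gap between clones of 1 group among the 39 tested members. Tcf7l2 lay above mOct4 by 0.53 ± 0.17 in LcPOU5F3 and 0.57 ± 0.17 in LcPOU5F1 (limma adjusted p = 0.0843 and 0.256), but a second probe gave -0.02 and 0.27.

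The targets, which read out β-catenin signalling in many tissues, were likewise not called in the main fit (0 of 3 tested in each comparison). Beside the 23.5%, 0.0343% and 20.6% of all genes called, 3 genes are too few to set a count of 0 apart. At an unadjusted limma p under 0.05 there was 1 target, Sp5 in LcPOU5F3 against mOct4. Axin2, a widely used target that feeds back on the pathway, had -2.29 and -2.88 in LcPOU5F3, -2.98 and -2.41 in LcPOU5F1 and -3.15 and -3.01 in mOct4. It was well above background only in LcPOU5F3 clone 2 and in both mOct4 clones, and it differed between LcPOU5F3 and mOct4 by 0.49 ± 0.29. Sp5, a transcription factor gene induced by Wnt signalling and the one whose promoter above holds CTTTGAT, had -0.99 and 0.81 in LcPOU5F3, 0.10 and -1.15 in LcPOU5F1 and -1.77 and -2.47 in mOct4. All 4 coelacanth clones were above both mOct4 clones, by 2.03 ± 0.73 in LcPOU5F3 (adjusted p = 0.102) and 1.59 ± 0.73 in LcPOU5F1 (adjusted p = 0.37), but the clones lay 1.80 log2 units apart in LcPOU5F3 and 1.25 apart in LcPOU5F1. Without LcPOU5F3 clone 1, and with median centring, Sp5 was called in LcPOU5F3 against mOct4. Nkd1 differed by -0.37 ± 0.43. Lgr5, a stem cell receptor gene, and T, a primitive streak gene that needs Wnt3 in the mouse embryo, were not well above background on any of the 6 arrays, including those with Wnt3 above background.

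**Figure D3:**
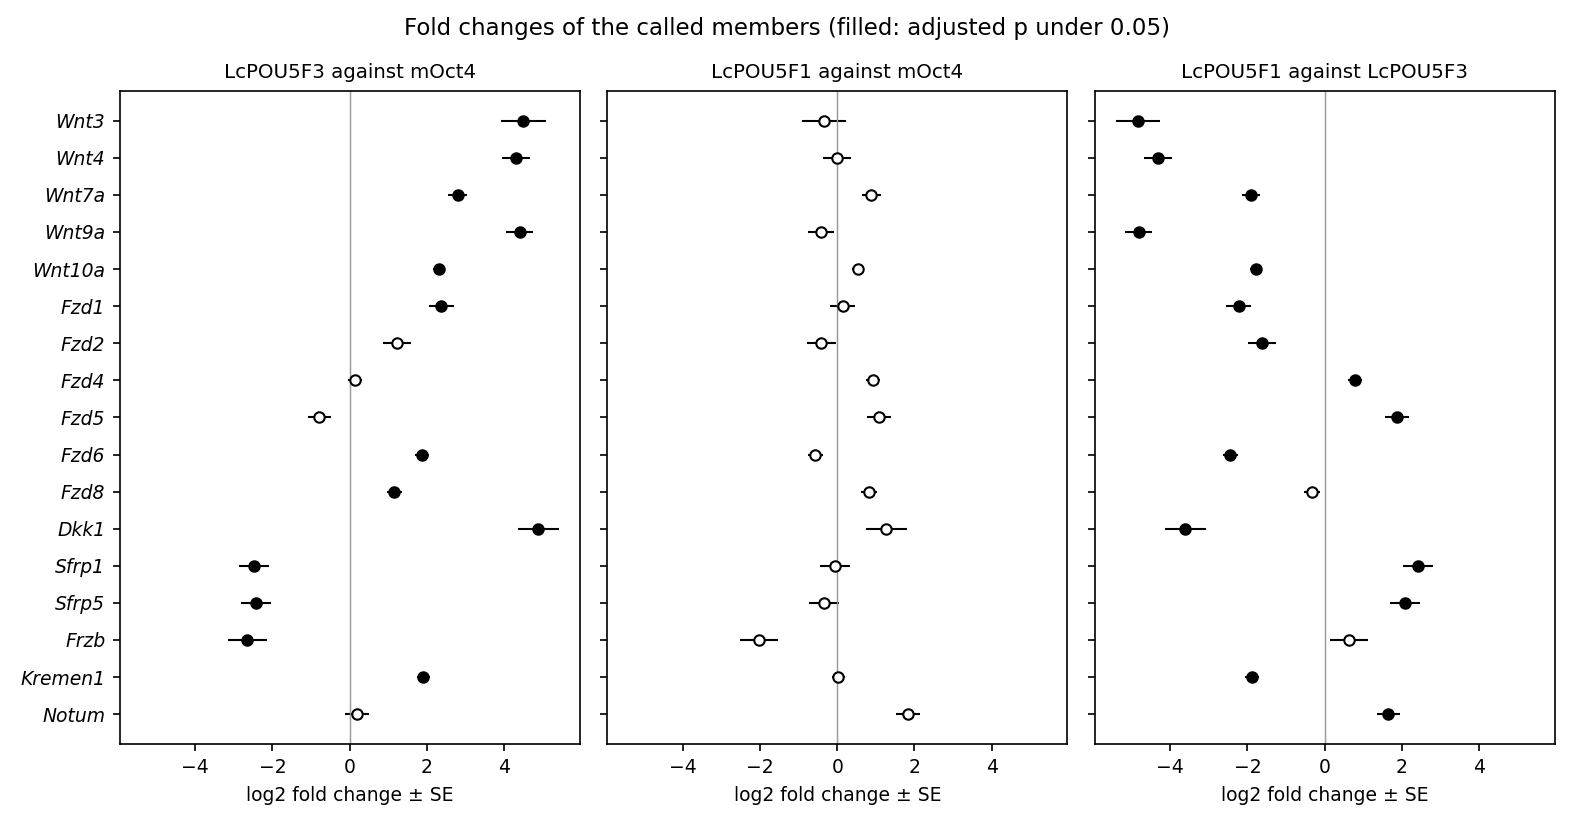
Log2 fold change ± SE of the 17 members called in at least 1 comparison, from 6 arrays (2 clones a group), with filled points where the adjusted p was below 0.05. The left and right panels mirror each other for most ligands, since both use the LcPOU5F3 arrays, and the middle panel (LcPOU5F1 against mOct4) has no filled point. Values of Wnt3, Wnt7a, Fzd6, Dkk1 and Frzb are fitted values that rest on signals below background in 1 or both groups, as does that of Wnt4 for LcPOU5F1.

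**Figure D4:**
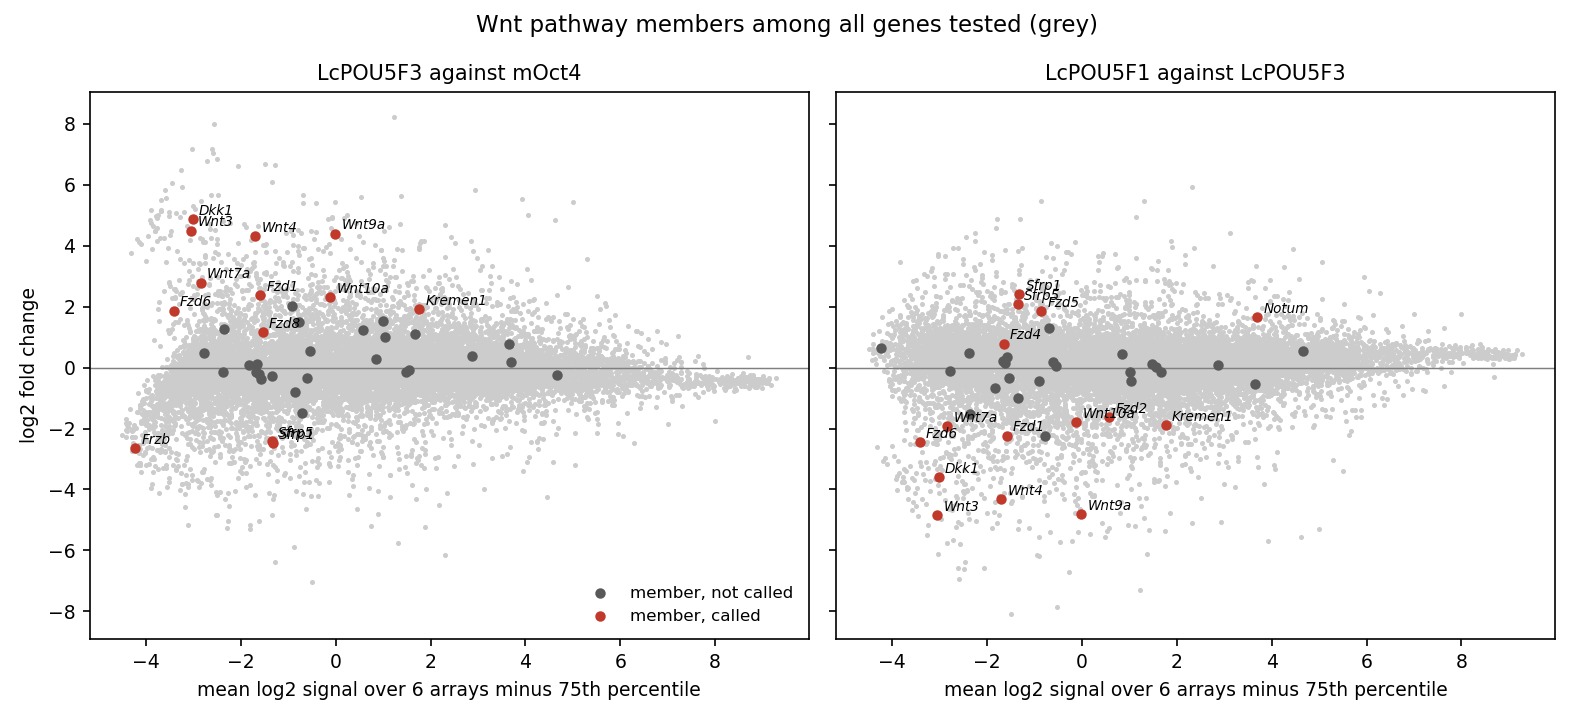
Log2 fold change against mean log2 signal over the 6 arrays for all 14595 genes (grey) and the 39 tested members, red where called. The called ligands lie above 2 in LcPOU5F3 against mOct4, inside the cloud of other genes at the same signal.

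Markers of 6 cell types were also measured, and several differed in LcPOU5F3, as the Wnt genes did. Of 10 naive pluripotency markers, all of them tested, 9 were lower in LcPOU5F3 than in mOct4, among them Nanog (-2.04 ± 0.36) and Esrrb (-2.48 ± 0.40). Their summed linear level, in multiples of the 75th percentile signal, was 90.7 to 149 in the LcPOU5F3 clones, 393 to 502 in the LcPOU5F1 clones and 461 to 500 in the mOct4 clones. A sum over probes is weighted towards the brightest of them.

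Of 10 trophectoderm markers, 9 were tested. In LcPOU5F3 against mOct4, 6 were higher (Cdx2, Krt7, Krt8, Krt18, Gata2 and Gata3) and Eomes was lower, while Tfap2c (0.05 ± 0.18) and Hand1 (-0.02 ± 0.69) did not pass, and no array measured Elf5 well above background. Their summed level was 513 to 538 in LcPOU5F3, 23.5 to 32.3 in LcPOU5F1 and 34.9 to 35.7 in mOct4, but Krt18 and Krt8 made up 90.9% of the sum in LcPOU5F3. Of 8 primitive endoderm markers, 4 were tested. Dab2 and Lamb1 were higher and Gata4 (0.52 ± 0.37) and Sox17 (0.33 ± 0.21) did not pass, with a summed level of 34.9 to 40.7 in LcPOU5F3, 9.67 to 11.9 in LcPOU5F1 and 7.26 to 8.03 in mOct4, of which Lamb1 made up 93.2% in LcPOU5F3.

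Of 8 fibroblast and mesenchyme markers, 7 were tested. Thy1, Tagln and Acta2 were higher in LcPOU5F3 than in mOct4, while Col1a1 (-0.80 ± 0.41, below background on both LcPOU5F3 arrays), Col1a2 (-0.45 ± 0.34), Col3a1 (0.72 ± 0.50) and Vim (-0.31 ± 0.68) did not pass. Their summed level was 43.8 to 108 in LcPOU5F3, 15.7 to 35.5 in LcPOU5F1 and 24.7 to 29.4 in mOct4, and Tagln and Vim made up 85.5% of it in LcPOU5F3. Of 7 neural markers, 5 were tested and 3 were lower in LcPOU5F3 than in mOct4: Tubb3 by 11.6-fold, Zic1 by 1.72-fold and Pax6, with 1 of 2 LcPOU5F3 arrays above background, by 2.47-fold. Their summed level was 3.21 to 3.35 in LcPOU5F3, 8.96 to 10.7 in LcPOU5F1 and 7.2 to 7.59 in mOct4, and Neurog2 and Olig2 were below background on all arrays. Of 8 mesoderm and primitive streak markers, 5 were tested and only Eomes, which is also in the trophectoderm list, was called. Mixl1, Mesp1 and Foxf1 were below background on all arrays, and the summed level was 7.85 to 11.5 in LcPOU5F3, 7.86 to 10.0 in LcPOU5F1 and 11.5 to 14.3 in mOct4.

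The part of these marker differences in the Wnt results was not tested. In RNA from whole cultures, fewer cells of a type and less RNA per cell cannot be told apart. Without one or the other mOct4 clone, 2 of the trophectoderm markers were called in LcPOU5F3 against mOct4 and none of the other 5 lists. Without one or the other LcPOU5F1 clone, none of the neural markers was called, Eomes was not called, and 1 mesoderm and primitive streak marker was called higher. The neural calls fell to 1 without LcPOU5F3 clone 2, and the fibroblast calls came to 5 (3 higher and 2 lower) without LcPOU5F3 clone 1.

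Beyond the 47 genes, 104 further genes of the pathway were listed, of which 84 were tested. In LcPOU5F3 against mOct4, 13 were higher and 6 lower (22.6% called, beside 23.5% of all genes). In LcPOU5F1 against mOct4 none was called by limma, with 15 at an unadjusted p under 0.05, and 5 were called (2 higher and 3 lower) without one or the other LcPOU5F3 clone. Of all 14595 genes, 2280 had an unadjusted limma p under 0.05 in LcPOU5F1 against mOct4. In LcPOU5F1 against LcPOU5F3, 7 of the further genes were higher and 14 lower (25.0%, beside 20.6%). The first count was 0 without mOct4 clone 1, 1 without mOct4 clone 2 and 27 without LcPOU5F3 clone 1, and the last was 4 without one or the other mOct4 clone or LcPOU5F1 clone 5, 5 without LcPOU5F1 clone 4 and 33 without LcPOU5F3 clone 1.

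Wls, the carrier protein that brings Wnt ligands to the cell surface, averaged 2.34 in LcPOU5F3 and -2.06 in mOct4, 21.2-fold higher (4.41 ± 0.44, limma adjusted p = 0.00711). In LcPOU5F1 it averaged -2.49 with 1 of 2 arrays above background, 28.5-fold below LcPOU5F3 (adjusted p = 0.00683). Porcn, which adds the lipid to Wnt ligands and was picked for naming after its values were seen, did not pass the test, with -1.35 ± 0.37 in LcPOU5F3 and -1.18 ± 0.37 in LcPOU5F1 against mOct4 (adjusted p = 0.0545 and 0.258). Ryk, a Wnt co-receptor with an inactive kinase domain, was 2.71-fold higher in LcPOU5F3 than in mOct4 and 2.32-fold lower in LcPOU5F1 than in LcPOU5F3. Gpc4, a cell surface proteoglycan of the Wnt pathway, was 4.29-fold higher in LcPOU5F3 than in mOct4 and 3.71-fold lower in LcPOU5F1 than in LcPOU5F3.

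Among the further targets, Jun, a component of AP-1, was 19.4-fold higher in LcPOU5F3 than in mOct4 (4.28 ± 0.21, limma adjusted p = 0.00264) and 11.9-fold lower in LcPOU5F1 than in LcPOU5F3. Fst, which encodes the activin antagonist follistatin, was 9.57-fold higher in LcPOU5F3 than in mOct4. Ascl2, a Wnt target of intestinal stem cells that is also known as a trophoblast gene, was 25.1-fold lower in LcPOU5F1, with 1 of 2 arrays above background, than in LcPOU5F3. Jun and Fst are induced by other pathways too, so the list is broader than β-catenin targets. By contrast, 3 genes given whatever their values were not called in any comparison: against mOct4, Tcf7l1 differed by -0.27 ± 0.25 in LcPOU5F3 and -0.44 ± 0.25 in LcPOU5F1, Ccnd1 by 0.69 ± 0.34 and 0.62 ± 0.34, and Myc by 0.19 ± 0.34 and -0.43 ± 0.34.

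**Figure D5:**
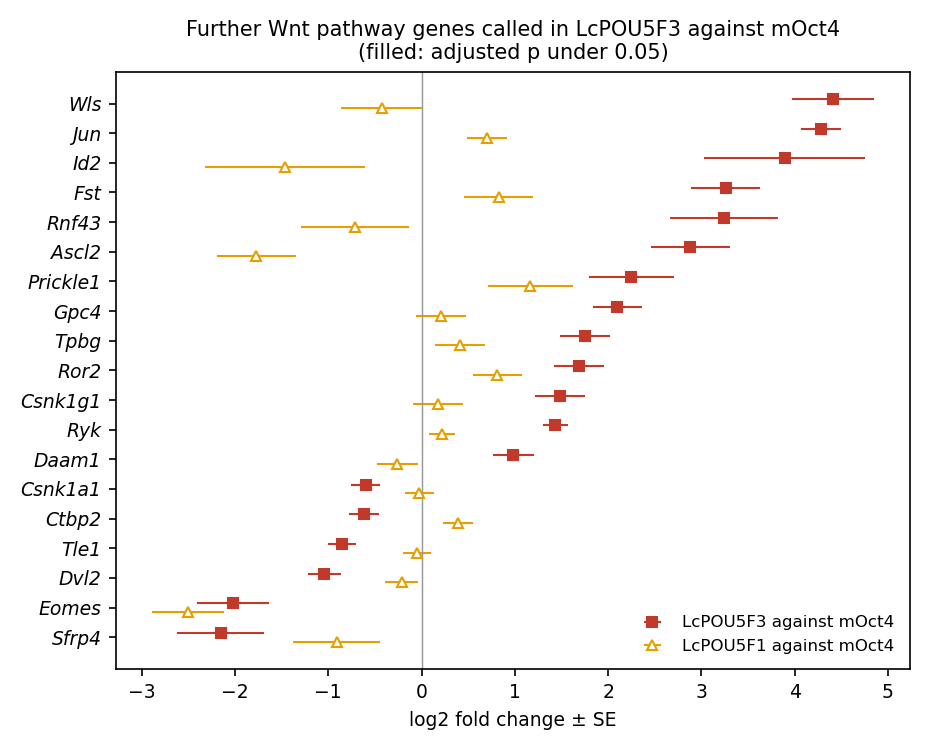
Log2 fold change ± SE against mOct4 for the 19 further pathway genes called in LcPOU5F3 (squares, filled where called), with the same genes in LcPOU5F1 (triangles, none called). Wls and Jun lie furthest right in LcPOU5F3, at 4.41 and 4.28, and Sfrp4 and Eomes furthest left.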

How the data were processed

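Total RNA of 6 clones was labelled with Cy3 and hybridised to 1-colour Agilent arrays, 1 array per clone. Per the file headers, the intensity of each spot was read with Agilent Feature Extraction 11.0.1.1, protocol GE1_1100_Jul11, which subtracted background and detrended the signal but did not scale between arrays; the design was annotated on mm9. The deposited table of the series holds the same intensity values, rounded.

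From these, spots of a probe were averaged and log2 intensity was centred on each array's 75th percentile. Probes were named through their RefSeq transcript: 27656 of 55681 had 1 symbol and 28025 (50.3%) were unnamed. The brightest kept probe stood for a gene. All 6 arrays were fitted with 3 group means in limma 3.58.1 (R 4.3.3, 3 residual degrees of freedom), with Benjamini-Hochberg adjustment over 14595 genes. The fit was also run on data simulated from the means and spreads of these arrays. No spot was saturated. Precision is limited by the small number of arrays. Where a probe was below background on every array of a group, the fold is a lower bound ("at least"), set against the lowest signal well above background on each array or the dim probe's own, whichever was higher. Promoters were taken from RefSeq on GRCm38.p6.

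Members and lists were chosen with earlier results of these data known. Values on each array are given for members past the threshold in any comparison and for Axin2, Sp5, Lef1, Tcf7, Ctnnb1, Lgr5 and T. Further pathway genes are the 5 with the smallest p per comparison, plus Tcf7l1, Ccnd1 and Myc. Other genes named were singled out after their values were seen. Alternatives were quantile normalization, median centring, normexp correction (offset 50, on median spot signals), other filters, a common floor, other probe rules, an intensity trend, the deposited table, other thresholds, fewer arrays, and slide or clone number as a block.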

Additional observations from a re-analysis of the deposited data

How the results depend on the processing

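The 13 members called in LcPOU5F3 against mOct4 were the same 13 with quantile normalization, the mean of a gene's probes and the deposited table, and 12 of them were called with median centring or normexp correction (without Fzd8). No called member changed sign under any alternative run, though Frzb came to 0 under the common floor. For the 22 members given on each array, 1243 alternative values were compared with the main fit: 144 lost a call, 26 gained one and 1028 stayed the same. A call stayed the same if it kept its direction, and no value called in either fit reversed. An uncalled value stayed the same if it shifted by at most the pooled SD between clones, whatever its sign, and 45 moved further. The uncalled Lef1 difference of LcPOU5F1 from mOct4, for example, ran from -1.74 to 1.18 and stayed the same throughout.

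Over all genes, the count in LcPOU5F3 against mOct4 (3436) was 1544 with no filter on dim probes, 2202 with only the 4 arrays compared, 46 with slide as a block, 526 at an adjusted p under 0.01 and 5325 under 0.1. Its 13 members became 6 when all 6 arrays had to be above background, 7 at 0.01 and 0 with slide as a block. In LcPOU5F1 against LcPOU5F3, the 3003 genes became 965 with no filter, 496 with the 4 arrays or the slide block, 431 at 0.01 and 4983 at 0.1, and the 15 members became 8 with all 6 arrays above background, 6 with the 4 arrays or the slide block and 5 at 0.01. In LcPOU5F1 against mOct4, the 5 genes became 105 with quantile normalization, 749 with median centring, 13 with normexp correction, 8 with every kept probe, 29 with an intensity trend, 529 with the 4 arrays, 42 at 0.1, 1 with the common floor, and 0 with no filter, with all 6 arrays above background, with the slide block and at 0.01. Its 0 members became 1 with quantile normalization (Frzb), 3 with median centring (Dkk3, Frzb and Notum) and 2 with the 4 arrays (Frzb and Notum). Requiring all 6 arrays above background also changed which members were called. The 6 in LcPOU5F3 against mOct4 were 4 of the 13, plus Fzd2 and Gsk3b. The 8 in LcPOU5F1 against LcPOU5F3 were 7 of the 15, plus Ctnnb1. The causes of these shifts were not tested, except that the slide block leaves mOct4 clone 2 out of the estimate.

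Leaving out each clone in turn gave 0 to 19 members and 36 to 5070 genes in LcPOU5F3 against mOct4, 0 to 2 members and 0 to 529 genes in LcPOU5F1 against mOct4, and 6 to 19 members and 446 to 5853 genes in LcPOU5F1 against LcPOU5F3. A group left with 1 array is assumed to vary like the others.

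Median centring moved the median of all genes to -0.27 from 0.10 in LcPOU5F1 against mOct4 and to -0.20 from 0.21 in LcPOU5F1 against LcPOU5F3. The share of calls that were higher in LcPOU5F1 than in LcPOU5F3 was 51.4% over all genes, 39.9% with quantile normalization and 21.3% with median centring, and 33.3% over members, 28.6% and 23.5%. In LcPOU5F1 against mOct4 it was 40.0% of 5 genes, 6.67% with quantile normalization, 6.28% with median centring and 15.4% with normexp correction. The uncalled difference of Kremen1 between LcPOU5F1 and mOct4 was 0.03, and -0.35 with median centring.

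Clone numbers were not taken to pair the samples, since the labels give numbered clones no shared origin across groups. Deviations of same-numbered LcPOU5F3 and mOct4 clones correlated at -0.097 over 14595 genes. With clone number as a replicate block, limma called 0 members and 0 genes in LcPOU5F3 against mOct4, with 22 members and 4398 genes at an unadjusted p under 0.05. LcPOU5F1 has other clone numbers, so it could not be blocked.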
